A study of Mus musculus with 40 samples.

Results

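Ribosomes tagged in GABAergic forebrain neurons were captured from a synaptoneurosome fraction and from whole-cell homogenate, and the RNA of these captures was compared. The comparison took 10 of the 40 libraries of the series, 5 SynapTRAP (ST) and 5 TRAP libraries of the VGAT line, and 15928 of the 41351 genes off the mitochondrial chromosome passed the filter on low counts. The study harvested forebrains of mice aged 21 days from a pair of lines, each with 5 pools of 2 to 3 forebrains of both sexes. From each pool it collected a whole-cell homogenate (WCH), tagged ribosomes captured from it (TRAP), a synaptoneurosome fraction (SNF) and tagged ribosomes captured from that fraction (ST). RNA-seq libraries were made from equal amounts of RNA.

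In the VGAT line, Cre driven from the Slc32a1 locus switches on a ribosomal protein fused to GFP (EGFP/Rpl10a) in neurons that make the vesicular GABA transporter. All 20 libraries of the line carry both alleles, and none of the 40 libraries comes from an animal without the tag, so RNA that sticks to the beads without a tagged ribosome was not measured. In the RBP4 line, used below for contrast, Rbp4-Cre tags layer 5 pyramidal neurons. The labels give cortex as the tissue and the protocol forebrain, and genes of striatal projection neurons such as Drd1 and Drd2 were measured in all 10 libraries. The 10 libraries held 14259535 to 20629343 counts, of which the mitochondrial chromosome took 2.8 to 19% in ST and 0.123 to 0.473% in TRAP. These genes were left out, and levels are given in cpm, the share of the remaining counts scaled to a common library size, after TMM scaling, a factor per library that evens out composition.

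Most neuronal mRNA is translated in the soma, but dendrites and axons hold ribosomes too and translate a subset of messages near synapses. Synaptoneurosomes are pinched-off, resealed pieces of synapses obtained on a density gradient, and they also carry along myelin and processes of glia. GABAergic neurons make GABA with the glutamate decarboxylases, load it into vesicles with the transporter VGAT, and in many classes release a neuropeptide as well. Messages for secreted and membrane proteins are translated on the endoplasmic reticulum, to which a hydrophobic stretch near the start of the new protein, a signal peptide or signal anchor, directs the ribosome.

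The first 40 codons of 6 mRNAs with differing ST levels are printed as examples. They were chosen because this hydrophobic stretch divides them, so they are no test of it. Sequences were read from the GRCm38 assembly with the GENCODE M21 models, from the start codon on. Capitals mark the window of 19 codons with the highest mean hydropathy on the Kyte-Doolittle scale, where that mean was at least 1.6. Whether this cutoff finds every signal peptide was not tested. The neuropeptide precursors Adcyap1 and Grp had no such window, and both were higher in ST (log2 fold changes 3.08 and 2.22). Sst lies at chr16:23890625-23890744 on the minus strand within 1 coding exon, and its window covered codons 1 to 19 with a mean of 2.07. Npy lies at chr6:49823598-49823717 on the plus strand, with codons 7 to 25 and a mean of 2.37. Cort lies at chr4:149126527-149126646 on the minus strand, with codons 12 to 30 and a mean of 1.61, just above the cutoff. The starts of Gad1 (chr2:70563832-70567226, plus), Gad2 (chr2:22622663-22623479, plus) and Pvalb (chr15:78202595-78204145, minus) each run over 2 exons and had no such window, their highest means being 0.758, 0.595 and 0.553.
Sst: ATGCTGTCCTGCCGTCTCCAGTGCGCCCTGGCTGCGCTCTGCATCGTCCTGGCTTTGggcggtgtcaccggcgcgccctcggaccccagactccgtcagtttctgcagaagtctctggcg
Npy: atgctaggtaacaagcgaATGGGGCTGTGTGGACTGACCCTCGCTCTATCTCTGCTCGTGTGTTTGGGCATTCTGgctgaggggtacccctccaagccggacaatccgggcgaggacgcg
Cort: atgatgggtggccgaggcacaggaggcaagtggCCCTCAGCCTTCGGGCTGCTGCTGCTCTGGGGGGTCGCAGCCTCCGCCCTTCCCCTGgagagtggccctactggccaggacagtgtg
Gad1: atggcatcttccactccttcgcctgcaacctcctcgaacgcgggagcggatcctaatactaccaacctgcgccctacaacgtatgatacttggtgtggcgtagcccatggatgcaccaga
Gad2: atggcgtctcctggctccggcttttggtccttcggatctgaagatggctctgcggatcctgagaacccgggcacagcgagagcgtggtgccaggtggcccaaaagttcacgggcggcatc
Pvalb: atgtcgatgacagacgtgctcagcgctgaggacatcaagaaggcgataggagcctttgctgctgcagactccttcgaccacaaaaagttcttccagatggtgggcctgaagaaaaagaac

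Across the 15928 genes, 5642 were higher and 5285 lower in ST than in TRAP at an adjusted p of at most 0.05, which is 68.6% of the genes, 35.4% higher and 33.2% lower. The test was edgeR's quasi-likelihood test with the pool as a block and Benjamini-Hochberg adjustment over all genes, and every adjusted p below comes from it or from the same test of an interaction. A change of at least 2-fold besides the adjusted p held for 4096 genes that were higher and 3108 that were lower. All 5 ST libraries lay above all 5 TRAP libraries for 27.1% of the genes and below them for 27.2%. The median log2 fold change over all genes was 0.03, so a list is described by its count and median beside these values. In bulk libraries fewer cells of a type and less RNA per cell cannot be told apart.

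RNA of glia and blood vessels, which carry no tag, was higher in ST. The 22 astrocyte markers summed to between 12919 and 38892 cpm in ST and between 1053 and 3520 cpm in TRAP, 14.1-fold apart as a mean over pools. For 20 oligodendrocyte and myelin markers the sums were 34306 to 53209 cpm in ST and 618 to 3160 cpm in TRAP, 37.8-fold apart. Both sums were higher in ST in 5 of 5 pools, with no overlap between the groups. Within the myelin sum, Mbp alone was at 16387 to 31922 cpm in ST and 101 to 570 cpm in TRAP. The 14 microglia markers summed to 524 to 1108 cpm in ST and 44.5 to 199.7 cpm in TRAP. The 16 endothelial and mural markers summed to 215 to 872 cpm and 42.2 to 72.4 cpm, and 10 of the 16 were below 1 cpm in every TRAP library. Within TRAP, pools 3 and 5 held the highest sums of astrocyte and myelin markers, and within ST, pools 1 and 2 held the highest endothelial sums. What part this RNA had in the changes described below was not tested.

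GABAergic neuron markers went the other way. Their 20 genes summed to 2362 to 6218 cpm in ST and 13679 to 17228 cpm in TRAP, 4.06-fold lower in ST and lower in 5 of 5 pools. On the same scale the sums were 1879 to 2422 cpm in WCH and 3108 to 4600 cpm in SNF, so the ST range overlapped those of SNF and WCH and stayed below that of TRAP. Excitatory neuron markers summed to 2553 to 3151 cpm in ST and 2199 to 3159 cpm in TRAP, 1.05-fold apart, with ST the higher in 2 of 5 pools. This sum hides opposite members, since 14 of the 20 were higher in ST and 2 lower. Arpp19, among the lower ones, was at 710 to 1261.5 cpm in TRAP, 205 to 335 cpm in ST and 713 to 894 cpm in WCH. Slc17a7 was at 25.1 to 156 cpm in TRAP, 380 to 742 cpm in ST and 282 to 313 cpm in WCH.

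**Figure D1:**
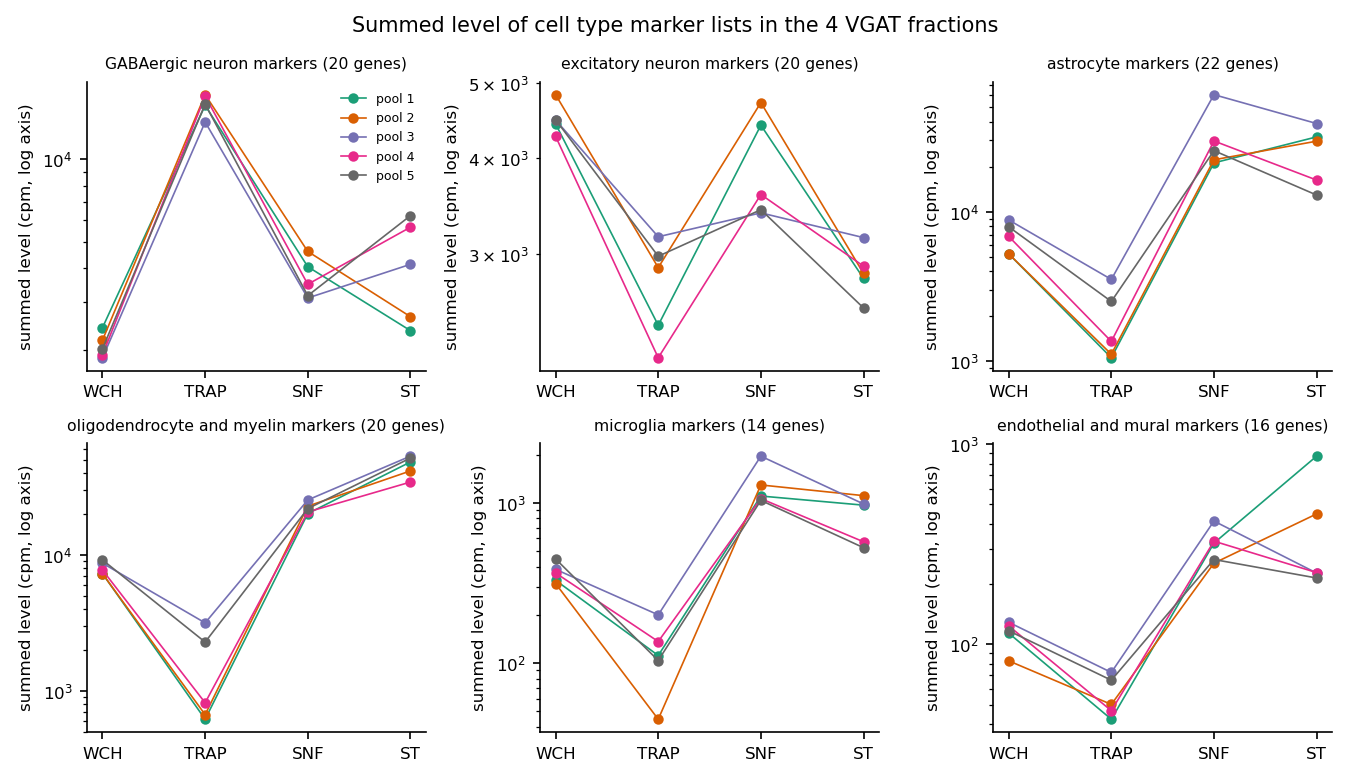
Summed level in cpm (log axis) of 6 lists of cell type markers in the WCH, TRAP, SNF and ST libraries of the VGAT line, with a line for each of the 5 pools. GABAergic markers peak in TRAP at 13679 to 17228 cpm and fall to 2362 to 6218 cpm in ST, while the glial sums dip in TRAP and rise again in ST.

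By single members, all 22 astrocyte, 20 myelin, 7 oligodendrocyte precursor and 14 microglia markers were higher in ST, with median log2 fold changes of 3.97, 3.23, 3.61 and 2.99, and so were 15 of 16 endothelial and mural markers (median 4.87). Mbp, a core protein of compact myelin, was at 27953, 21554, 28822, 16776 and 34196 cpm in ST pools 1 to 5 and at 107, 95.1, 536, 136 and 549 cpm in TRAP. Its log2 fold change was 6.90 (standard error 0.45, adjusted p = 4.4e-06), the largest among genes averaging at least 10 cpm whose groups did not overlap. The other 9 genes at that end were Mobp (6.30), Bcas1 (6.10), Slco1a4 (5.97), Lpar1 (5.68), Scd1 (5.58), Flt1 (5.55), Plekhb1 (5.51), Gfap (5.35) and Ly6c1 (5.30). Gfap, the intermediate filament of astrocytes, was at 599, 568, 585, 228 and 239 cpm in ST and at 4.74, 4.89, 52.5, 3.93 and 17.2 cpm in TRAP. Tagln, a smooth muscle actin-binding protein, was the 1 vascular marker that was lower in ST (log2 fold change -0.85, adjusted p = 0.011), with overlapping groups, and the call was lost without pool 5 (adjusted p = 0.053).

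At the opposite end stood genes of GABAergic neurons. Dlx5, a homeobox factor of GABAergic development, was at 1.07, 1.27, 2.27, 2.05 and 3.87 cpm in ST and at 44.3, 33.7, 32.0, 36.0 and 29.3 cpm in TRAP, a log2 fold change of -4.14 (standard error 0.32, adjusted p = 6.3e-06). Pvalb, the calcium buffer of fast-spiking interneurons, was at 53.3, 52.3, 201, 167 and 175 cpm in ST and at 1818, 2318, 1466, 1704 and 1934 cpm in TRAP, a log2 fold change of -4.03 (standard error 0.41, adjusted p = 1.9e-05). For both genes every ST library lay far below every TRAP library. The other 8 of the 10 lowest were Isl1 (-3.98), Rpp25 (-3.93), Sncg (-3.79), Cd4 (-3.75), Dlx6 (-3.71), Akr1c18 (-3.64), Ido1 (-3.57) and Ppp1r1b (-3.54). Ppp1r1b encodes DARPP-32, the dopamine-regulated phosphatase inhibitor of striatal projection neurons, and Isl1 a homeobox factor of the direct-pathway cells among them.

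Of the 5 genes of GABA synthesis and transport, 3 were lower in ST, 2 did not pass the test, and the median log2 fold change was -0.46. Gad1, which makes most of the GABA of the brain, was at 251, 258, 148, 458 and 352 cpm in ST and at 2951, 3438, 1948, 2859 and 2666 cpm in TRAP. It was 9.96-fold lower in ST (log2 fold change -3.32, standard error 0.23, adjusted p = 4.5e-06). Gad2, the decarboxylase that sits on synaptic vesicles, was at 102, 98.3, 87.0, 199 and 162 cpm in ST and at 1404, 1561, 831, 1085 and 1047 cpm in TRAP. It was 9.41-fold lower (log2 fold change -3.23, standard error 0.26, adjusted p = 6.7e-06). In neither decarboxylase did a single ST library come near a TRAP library.

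The vesicular transporter was nearer to equality. Slc32a1, which encodes VGAT, was at 41.4, 46.2, 25, 47.5 and 50.0 cpm in ST and at 46.7, 49.2, 54.9, 75.5 and 60.3 cpm in TRAP. The groups overlapped, and its log2 fold change was -0.46 (standard error 0.17, adjusted p = 0.032). The call was lost when pool 3, 4 or 5 was left out (adjusted p = 0.068, 0.11 and 0.054). Abat, which breaks GABA down, had a log2 fold change of 0.53 (standard error 0.22, adjusted p = 0.052), and without pool 4 or 5 it was called higher.

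Of the 15 neuropeptide precursors 11 were lower and 3 higher in ST, with a median log2 fold change of -1.34. Sst, the somatostatin precursor, was at 353, 415, 1227, 1455 and 2039 cpm in ST and at 2593, 2378, 2646, 3569 and 2671 cpm in TRAP. Its log2 fold change was -1.63 (standard error 0.35, adjusted p = 0.0019), and the highest ST library stood just under the lowest TRAP library. Npy, the neuropeptide Y precursor, was at 415, 518, 981, 1743 and 2189 cpm in ST and at 2757, 2858, 3233, 3599 and 3417 cpm in TRAP, a log2 fold change of -1.72 (standard error 0.31, adjusted p = 0.00069). Cort, the somatostatin-related cortistatin, was at 9.03, 10.1, 22.9, 29.6 and 35.6 cpm in ST and at 57.9, 58.4, 53.2, 90.9 and 67.5 cpm in TRAP, a log2 fold change of -1.78 (standard error 0.26, adjusted p = 0.00017). All 3 genes had their lowest ST levels in pools 1 and 2, the ST pools with the highest endothelial sums, and no ST library reached a TRAP library. Vip, which marks another interneuron class, was also lower (log2 fold change -1.52, adjusted p = 0.00052), as were Crh, Pnoc, Tac1, Tac2, Penk, Cartpt and Pdyn, with log2 fold changes from -1.45 to -0.64.

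The exceptions among the precursors were 3 genes. Adcyap1, the PACAP precursor, was at 26.8, 33.2, 22, 28.9 and 17.5 cpm in ST and at 1.66, 2.41, 6.78, 2.27 and 3.28 cpm in TRAP, a log2 fold change of 3.08 (standard error 0.34, adjusted p = 3.3e-05). Grp, the gastrin-releasing peptide precursor, had a log2 fold change of 2.22 and Cck, the cholecystokinin precursor, one of 1.4, and no ST library of either overlapped TRAP. Of these 3, TRAP stood below WCH for Adcyap1 and Grp, with log2 fold changes of TRAP against WCH of -2.22 and -1.4, and that of Cck was -0.18, against a median of 3.05 over the 15 precursors.

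Genes that process and package peptides were higher in ST than in TRAP, although their median rose more without a pull-down, as given below. Of 12 genes 8 were higher and 0 lower, with a median log2 fold change of 0.90, and 4 did not pass the test, their values running from -0.46 to 0.67. Cpe, the carboxypeptidase that trims prohormones, was at 10251, 10826, 11775, 6848 and 4781 cpm in ST and at 1109, 1277, 2115, 1454 and 1796 cpm in TRAP, a log2 fold change of 2.49 (standard error 0.29, adjusted p = 3.9e-05). Scg3, a granin of dense-core vesicles, had a log2 fold change of 2.08, and the convertases Pcsk1 and Pcsk2 had 1.5 and 1.39. Cpe and Scg3 are also expressed by astrocytes, whose markers moved the same way.

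Transcription factors of interneurons were lower almost throughout, 14 of 17 with a median log2 fold change of -2.25. After Dlx5 and Dlx6 came Sp8 (-3.08), Dlx2 (-3.08), Lhx6 (-3.04), Dlx1 (-2.91) and Sp9 (-2.50). Lhx6, which specifies interneurons of the medial ganglionic eminence, was at 13.5, 10.2, 16.8, 15.8 and 15.8 cpm in ST and at 145, 137, 85.3, 124 and 103 cpm in TRAP (adjusted p = 4.5e-06). The ST libraries were within a narrow band for this gene and far from TRAP. Nr2e1, a nuclear receptor also found in astrocytes, was the 1 factor that was higher (log2 fold change 0.88, adjusted p = 0.0064), with overlapping groups.

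Genes of striatal projection neurons were lower in 18 of 20 cases, with a median log2 fold change of -1.36. Rgs9, which speeds the decay of dopamine receptor signalling, was at 10.8, 8.57, 11.1, 15.3 and 28.3 cpm in ST and at 118, 127, 75.2, 89.4 and 125 cpm in TRAP, a log2 fold change of -2.95 (adjusted p = 7.9e-06). The dopamine receptors Drd2 and Drd1 had -2.02 and -1.10, and the adenosine receptor Adora2a had -1.44. ST pool 5 was the highest ST library for each of Rgs9, Drd2, Drd1 and Adora2a. Adcy5, the main adenylyl cyclase of these cells, was the 1 gene that was higher (0.47), and without the filter on low counts it no longer passed (adjusted p = 0.066). Chat, which makes acetylcholine, had a log2 fold change of -2.32, and 2 of 4 cholinergic markers were lower in ST.

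Receptors for the transmitters stood above the median of all genes. Of 13 GABA-A receptor subunits 7 were higher and 0 lower in ST, with a median of 0.95. Gabrb1 was at 55.1, 46.3, 55.7, 35.1 and 45.4 cpm in ST and at 10.04, 7.18, 15.4, 9.31 and 10.4 cpm in TRAP (log2 fold change 2.20, adjusted p = 5.9e-06). Of 23 ionotropic glutamate receptor genes and auxiliary subunits 13 were higher and 2 lower, with a median of 0.72. The highest was Grin2c (4.10), an NMDA receptor subunit that astrocytes also express, and the lower members were Neto1 (-1.0) and Grik1 (-0.71), an auxiliary and a pore-forming subunit of kainate receptors.

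Scaffolds of the postsynaptic side were higher, 19 of 23 with a median log2 fold change of 1.15. Shank3, a master scaffold of excitatory synapses, was at 141, 121, 192, 115 and 78.7 cpm in ST and at 13.9, 12.5, 22.2, 11.9 and 25.2 cpm in TRAP, 7.64-fold higher in ST (log2 fold change 2.93, standard error 0.25, adjusted p = 9.1e-06). Shank1 and Homer2 had 3.23 and 2.78, and Dlg4, which encodes PSD-95, had 1.52. In contrast Gphn, the gephyrin scaffold of inhibitory synapses, was at 81.6, 85.3, 55.4, 87.4 and 76.4 cpm in ST and at 143, 155, 137, 144 and 164 cpm in TRAP, a log2 fold change of -0.96 (standard error 0.14, adjusted p = 0.00014). Dlg3 (-0.54) and Homer1 (-0.46) were the other members that were lower, and the call for Homer1 was lost when pool 1, 2 or 5 was left out (adjusted p = 0.084, 0.085 and 0.069). Nlgn2, the adhesion protein of inhibitory synapses, was higher (0.96, adjusted p = 0.00041).

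mRNAs known from dendrites of principal neurons were higher in 12 of 15 cases, with a median of 2.13. Camk2a, the kinase whose mRNA is a standard example of a dendritic message, was at 5006, 4502, 5455, 4974 and 4347 cpm in ST and at 226, 197, 734, 226 and 703 cpm in TRAP, 14-fold higher (log2 fold change 3.8, standard error 0.35, adjusted p = 1.3e-05). Ppp1r9b had 2.82, Ddn 2.81 and Arc 2.25, all without overlap. Nrgn, neurogranin, was the 1 member that was lower (-0.43, adjusted p = 0.028), and this call was lost when pool 1, 2, 4 or 5 was left out (adjusted p from 0.068 to 0.14), without the block (0.15) or with DESeq2 size factors (0.051). Several of these mRNAs belong to excitatory cells, and single excitatory markers were higher in ST too, 14 of 20 with a median of 1.44, although their summed level was nearly equal between the groups. Slc17a7, the vesicular glutamate transporter of cortical excitatory neurons, was at 697, 724, 682, 404 and 407 cpm in ST and at 23.8, 24.5, 150, 38.3 and 49.2 cpm in TRAP (log2 fold change 3.67, adjusted p = 2.9e-05).

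**Figure D2:**
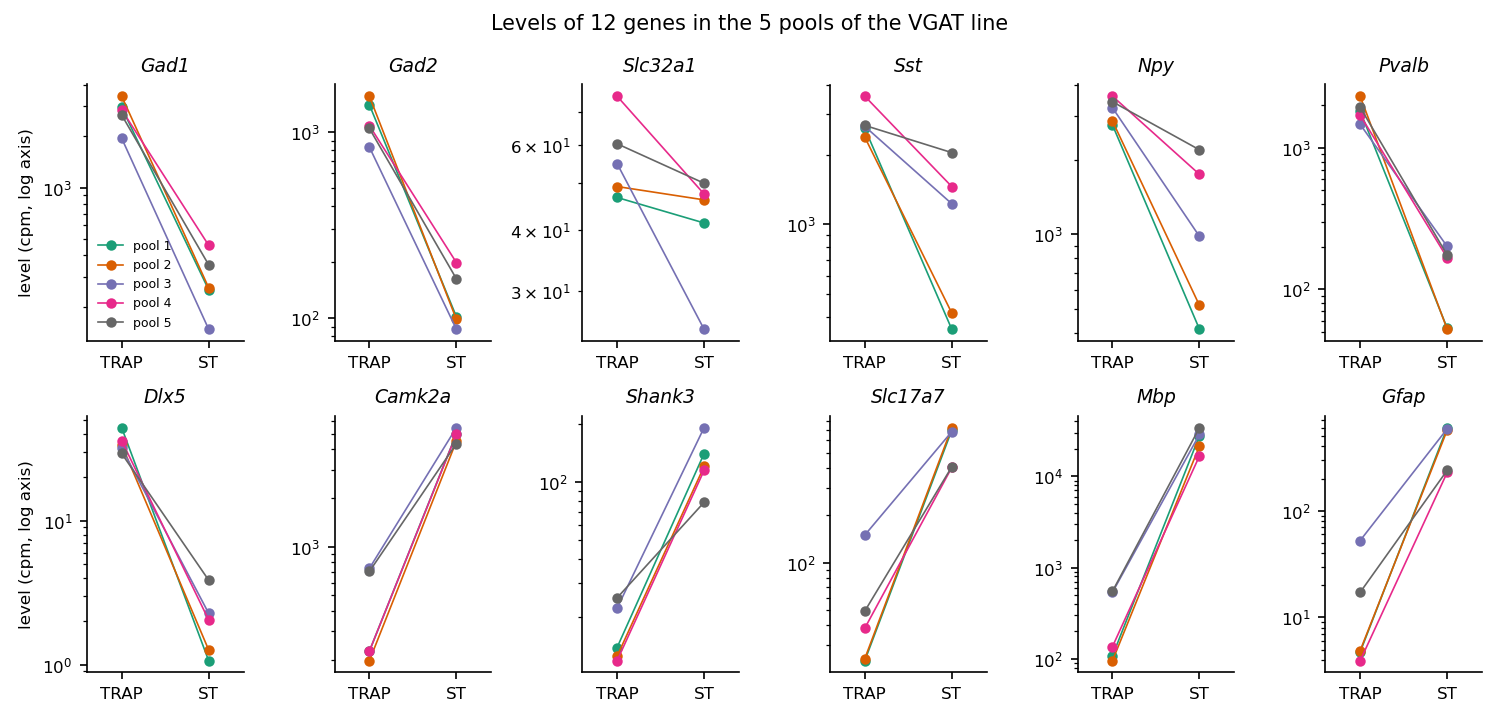
Levels in cpm (log axis) of 12 genes in TRAP and ST, with a line for each of the 5 pools of the VGAT line. Gad1, Gad2, Pvalb and Dlx5 fall steeply in every pool, Sst and Npy fall less and spread in ST, Slc32a1 overlaps, and Camk2a, Shank3, Slc17a7, Mbp and Gfap rise in every pool.

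Of 29 genes of vesicle release 11 were higher and 12 lower, shares near those of all genes, with a median of -0.29. Bsn, a large scaffold of the active zone, was at 993, 927, 716, 787 and 571 cpm in ST and at 68.8, 80.4, 144, 91.9 and 155 cpm in TRAP (log2 fold change 2.94, adjusted p = 1.7e-05), and Rims1 and Pclo, also of the active zone, had 2.10 and 2.06. Snap25, a membrane fusion protein, was at 1328, 1504, 1717, 2491 and 2693 cpm in ST and at 8356, 9065, 9009, 8104 and 8732 cpm in TRAP (log2 fold change -2.21, adjusted p = 2.3e-05). Vamp1 (-2.40), Cplx1 (-1.94), Rab3a (-1.87) and Nsf (-1.58) were on the same side. Stx1a, the partner of Snap25 in the fusion complex, was on the other (1.45). Gene model length, the summed exon length in the deposited tables, had a median of 7080 bases among the members that were higher and 5443 bases among those that were lower.

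Of 35 voltage-gated channel genes 22 were higher and 5 lower, with a median of 0.94. Cacna2d1, an auxiliary calcium channel subunit, had 2.31, and the pore-forming Cacna1a of presynaptic terminals 2.17. Kcnab1, a cytoplasmic potassium channel subunit, was the lowest at -3.08 (standard error 0.29, adjusted p = 1.3e-05), and Kcnc2, the Kv3 channel of fast-spiking cells, was at -0.98. In the cytoskeleton 15 of 34 genes were higher and 12 lower. Spectrins and ankyrins were at the upper end, with Sptbn1 at 4.21 and Ank2 at 3.02. Sptbn1 was at 5177, 4548, 14891, 19826 and 11262 cpm in ST and at 140, 130, 4390, 157 and 3395 cpm in TRAP. TRAP pools 3 and 5 thus stood far above the other TRAP pools for this spectrin, and they did for Ank2 as well. The lower members were shorter genes, such as Dync1i1 (-1.4), Tubb2a (-1.24) and Tubb3 (-1.16), with a median length of 2598 bases against 9741 bases among the higher ones.

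Housekeeping lists did not share 1 direction. None of 75 nuclear genes of the respiratory chain and ATP synthase was higher and 65 were lower, with a median of -1.17. Atp5g3, a subunit of the membrane ring of ATP synthase, was at 251, 288, 516, 328 and 310 cpm in ST and at 1509, 1542, 1317, 1822 and 1222 cpm in TRAP (log2 fold change -2.17, adjusted p = 1.7e-05). Cox4i1, a subunit of cytochrome c oxidase, did not pass (0.06, standard error 0.17, adjusted p = 0.75). Of 31 proteasome subunits 28 were lower and 0 higher, with a median of -0.73. Cytoplasmic ribosomal proteins divided into 18 higher and 20 lower of 82, with a median of -0.02, and leaving out 1 pool gave 12 to 17 higher (lowest without pool 2) and 10 to 24 lower (lowest without pool 1), and the higher count was 9 with no filter on low counts. Rplp0 (1.48) and Rpsa (1.21) were at the upper end and Rpl28 (-1.69) at the lower end, and many of these genes share reads with near-identical pseudogene copies, so single values are uncertain. Rpl10a, whose protein carries the tag, was at 0.364 to 4.15 cpm in ST and 1.0 to 2.90 cpm in TRAP and did not pass (adjusted p = 0.57).

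Among 41 translation factors 8 were higher and 15 lower. The elongation factor Eef2 (1.26) and the poly(A)-binding protein Pabpc1 (1.67) were higher, and the initiation factors Eif1a (-1.96), Eif1 (-1.87) and Eif4e (-1.59) were lower. Neuronal RNA-binding proteins had 8 of 27 higher (5 without pool 4) and 13 lower, from Elavl2 (-2.52) to Cyfip1 (1.77). Of 30 genes of endoplasmic reticulum translocation and folding 17 were higher and 4 lower, among the latter Sec61g (-2.60) and Sec61b (-1.85), the small subunits of the translocation channel, whereas its large subunit Sec61a1 had 0.85. Of 30 chromatin regulators, the longest genes of any list of proteins with a median length of 12365.5 bases, 21 were higher and 0 lower. Immediate early genes were mixed, 5 of 16 higher (2 without pool 1, 2 or 4, and 3 without pool 5) and 6 lower, with Dusp1 at -1.82 and Fos at -0.91. Nuclear long noncoding RNAs, which are not translated, were higher in 6 of 10 cases with a median of 1.65, and for Kcnq1ot1 (4.29), whose reads cannot be told from those of the overlapping Kcnq1 without strand, the groups overlapped.

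**Figure D3:**
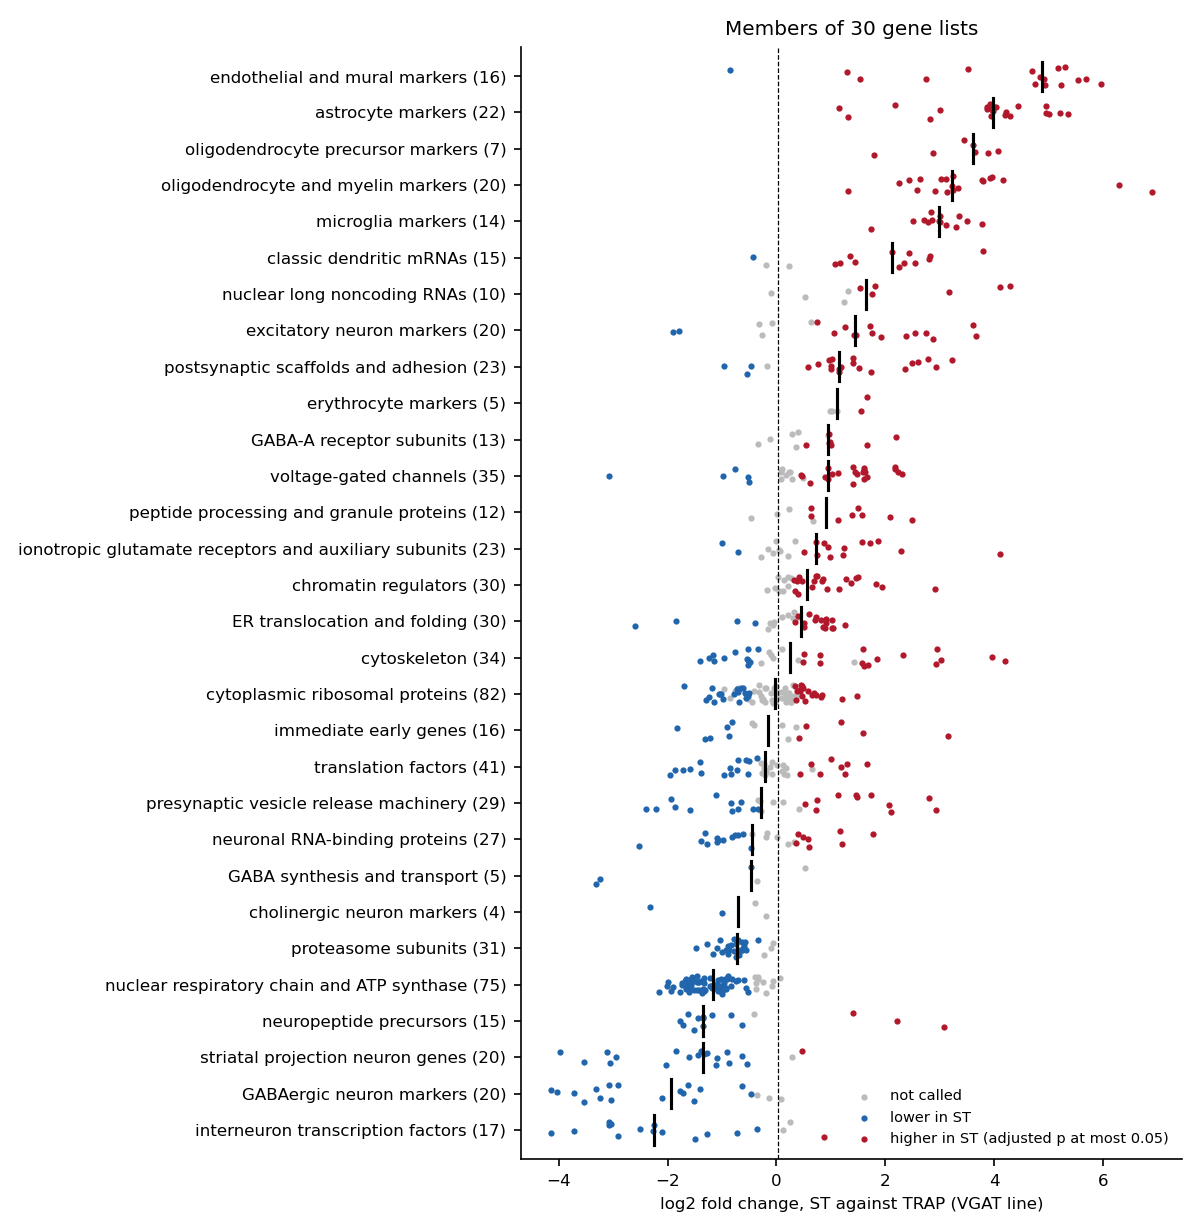
Log2 fold change of ST against TRAP (x axis) for the measured members of 30 gene lists (rows, with the number measured), coloured by whether they passed the test, with the list median as a bar and the median of all 15928 genes (0.03) as a dashed line. Interneuron transcription factors, GABAergic markers, striatal genes and neuropeptide precursors lie at the low end, and endothelial, glial and dendritic lists at the high end.

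Synaptoneurosome preparation changes the RNA without any pull-down, so the step from TRAP to ST was set against the step from WCH to SNF in the same pools, as an interaction over 20 libraries. At an adjusted p of at most 0.05, 27.6% of 16994 genes moved more upward with the tagged ribosomes than without and 26.2% more downward. Over genes, the log2 fold changes of the steps, which share pools but no libraries, had a Pearson r of 0.509 and a Spearman rho of 0.533, and genes are not independent replicates. Of 7670 genes called in both steps, 3093 were up in both, 3635 down in both, 568 up with the tagged ribosomes and down without, and 374 the reverse. As whole profiles, mean log2(cpm + 1) of ST had a Pearson r of 0.979 with SNF, 0.956 with WCH and 0.905 with TRAP. Hence the ST libraries were nearest to the fraction they were captured from.

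As a list, neuropeptide precursors had medians of opposite sign at the steps. The median log2 fold change was 1.64 from WCH to SNF and -1.34 from TRAP to ST, and 12 of 15 precursors moved more downward with the tagged ribosomes. The median was 3.05 from WCH to TRAP and 0.12 from SNF to ST. On the scale of the 20 libraries Sst was at 191, 197, 183, 194 and 190 cpm in WCH and at 768, 951, 631, 679 and 606 cpm in SNF. It was at 2736, 2517, 2761, 3693 and 2776 cpm in TRAP and at 365, 426, 1318, 1422 and 1903 cpm in ST. ST pools 1 and 2 were thus below all SNF pools and ST pools 3 to 5 above them, and the interaction was -3.45 (standard error 0.45, adjusted p = 4.3e-06). Npy and Cort had interactions of -3.34 and -3.13.

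Gad1 fell at both steps. It was at 625, 520, 414, 450 and 498 cpm in WCH, at 425, 377, 153, 288 and 232 cpm in SNF, at 3113, 3637, 2033, 2959 and 2771 cpm in TRAP and at 259, 265, 158, 448 and 329 cpm in ST. The SNF and ST ranges overlapped widely, and the interaction was -2.50 (standard error 0.27, adjusted p = 7.3e-07). All 20 GABAergic markers moved more downward with the tagged ribosomes than without, and so did 17 of 20 striatal genes, 12 of 17 interneuron factors and 69 of 75 respiratory chain genes. Their median log2 fold changes for SNF against WCH were 0.42, -0.46, -0.47 and 0.15.

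Lists that moved more upward with the tagged ribosomes included 16 of 23 postsynaptic scaffolds, 10 of 15 dendritic mRNAs and 24 of 30 chromatin regulators. The same held for 18 of 22 astrocyte markers and 20 of 20 myelin markers. Medians of ST against SNF were 0.98 for scaffolds, 0.38 for dendritic mRNAs and 0.33 for chromatin regulators. For astrocyte and myelin markers they were -0.34 and -0.65, and those of TRAP against WCH were -2.30 and -2.60. The summed myelin level was nevertheless higher in ST, at 34306 to 53209 cpm, than in SNF, at 20126 to 25340 cpm. Most of the ST sum came from Mbp and Mobp. Mbp was at 16387 to 31922 cpm in ST and 2172 to 4410 cpm in SNF, and Mobp at 8024 to 10957 cpm and 1057 to 1829 cpm. Camk2a was at 1031, 889, 931, 828 and 907 cpm in WCH and at 1713, 1526, 2048, 1578 and 1509 cpm in SNF. It was at 238, 209, 766, 234 and 731 cpm in TRAP and at 5164, 4616, 5859, 4859 and 4058 cpm in ST, an interaction of 2.77 (standard error 0.38, adjusted p = 7.1e-06). Its ST level therefore exceeded that of SNF in all 5 pools. GABA-A receptor subunits had medians of 1.30 from WCH to SNF and 0.95 from TRAP to ST, with 1 of 13 moving more upward and 7 more downward. For genes that process and package peptides the medians were 1.897 and 0.902, with 0 of 12 moving more upward and 7 more downward. Of the genes of endoplasmic reticulum translocation and folding, 0 of 30 moved more upward and 28 more downward. Medians of ST against SNF were -0.63 for the peptide processing list and -0.67 for the endoplasmic reticulum list.

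The genes with the smallest p for a larger upward step were Pdlim2 (interaction 3.93), Prr18 (3.93), Dbndd2 (2.76), 1700047M11Rik (3.64) and 1700020I14Rik (2.37). Prr18, a gene of myelinating oligodendrocytes, was at 8.83 to 10.2 cpm in WCH, 13.3 to 38.3 in SNF, 3.36 to 8.42 in TRAP and 98.9 to 283 in ST. Those for a larger downward step were Rdh14 (-1.83), Nxph1 (-3.02), Vwc2 (-2.81), Lypd6b (-2.10) and Ifitm10 (-2.47). Nxph1, a secreted ligand of neurexins found in interneurons, was at 41.3 to 52.1 cpm in WCH, 91.3 to 172 in SNF, 262 to 346 in TRAP and 71.4 to 176 in ST. It thus rose from WCH to SNF and fell from TRAP to ST. Rdh14 and Lypd6b had the same pair of directions, with log2 fold changes of 1.07 and 1.02 from WCH to SNF and of -0.77 and -1.08 from TRAP to ST.

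**Figure D4:**
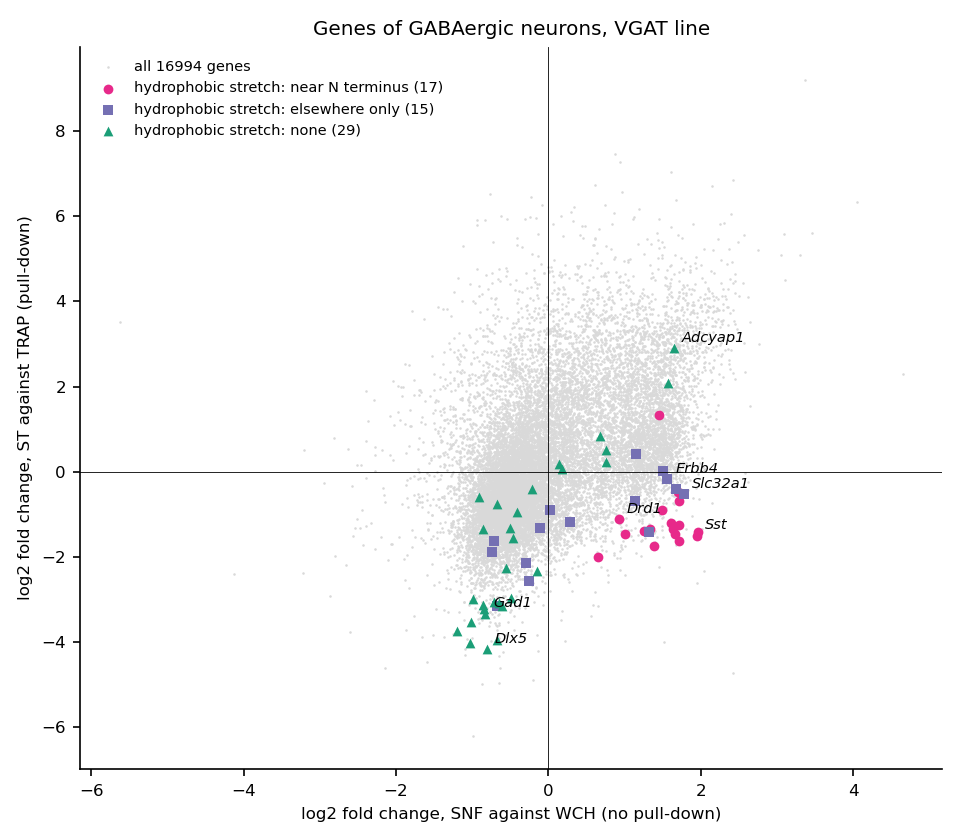
Log2 fold change of ST against TRAP (y axis) against that of SNF against WCH (x axis) for 16994 genes in grey, with the genes of 5 lists of GABAergic neurons coloured by where their protein has a hydrophobic stretch. Genes in which no stretch was found, such as Gad1 and Dlx5, lie mostly at the lower left, apart from a few such as Adcyap1. Genes with one, such as Sst, Slc32a1 and Erbb4, lie mostly at the right and below 0 on the y axis.

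The hydrophobic stretch printed above divided all coding genes in the same way. Of 2332 genes with a stretch starting within the first 40 codons, 60.3% were higher in ST and 10.8% lower, with a median log2 fold change of 0.83. Of 2927 genes with a stretch only elsewhere, 48.0% were higher and 20.8% lower (median 0.48). Of 8941 genes with none, 26.9% were higher and 43.7% lower (median -0.31). Without a pull-down, the medians of SNF against WCH for these classes were 1.24, 0.40 and -0.39, and in the RBP4 line those of ST against TRAP were 0.68, 0.35 and -0.37. The order of the classes was thus the same in each of these comparisons. It was the opposite between libraries with and without a pull-down. There the medians were -0.56, -0.18 and 0.11 for ST against SNF, and -0.26, -0.16 and 0.11 for TRAP against WCH.

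Within the GABAergic markers the classes were far apart, a pattern noticed after the values were seen and given with no test. The 9 markers with no stretch, Gad1, Gad2, Pvalb, Ppp1r1b, Lhx6, Dlx1, Dlx2, Dlx5 and Dlx6, ran from -4.14 to -2.91 with a median of -3.32. The 11 with a stretch ran from -2.09 to 0.08 with a median of -1.4, and the ranges did not overlap. Their medians of SNF against WCH were -0.81 and 1.56, and those of TRAP against WCH were 2.82 and 2.75. Sst, Npy and Cort belong to the second set, and the start sequences above show their stretch at codons 1 to 19, 7 to 25 and 12 to 30. Other lists were not all divided in this way. Medians with and without a stretch were -1.25 and -2.14 for striatal genes, in the same order. They were nearly equal for interneuron factors (-2.30 and -2.25) and astrocyte markers (4.01 and 3.96). For neuropeptide precursors the median was -1.35 for 13 genes with a stretch and 2.65 for Adcyap1 and Grp, in which none was found. Whether the cutoff missed a signal peptide in these 2 was not tested. Medians of SNF against WCH were alike for the 13 and the 2, at 1.67 and 1.61. Those of TRAP against WCH were 3.25 and -1.81.

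Length ordered the genes as well. The median gene model was 4551 bases long among genes higher in ST, 2844 among those lower and 3592.5 among all tested. Coding lengths were 1749, 1080 and 1413 bases, and 3´ UTR lengths 1271, 768.5 and 971.5 bases. With genes cut into 10 equal groups by gene model length, from the shortest group to the longest the median log2 fold change went from -0.78 to 0.71, and the share of genes higher in ST from 19.5 to 59.8%. GC content differed little, with medians of 51.1 and 49.7% among genes higher and lower. The lists kept to this order only in part, since postsynaptic scaffolds had a median of 8293 bases and respiratory chain genes one of 1363 bases, but interneuron factors, with 4805 bases, were lower, and microglia markers, with 2123 bases, were higher.

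**Figure D5:**
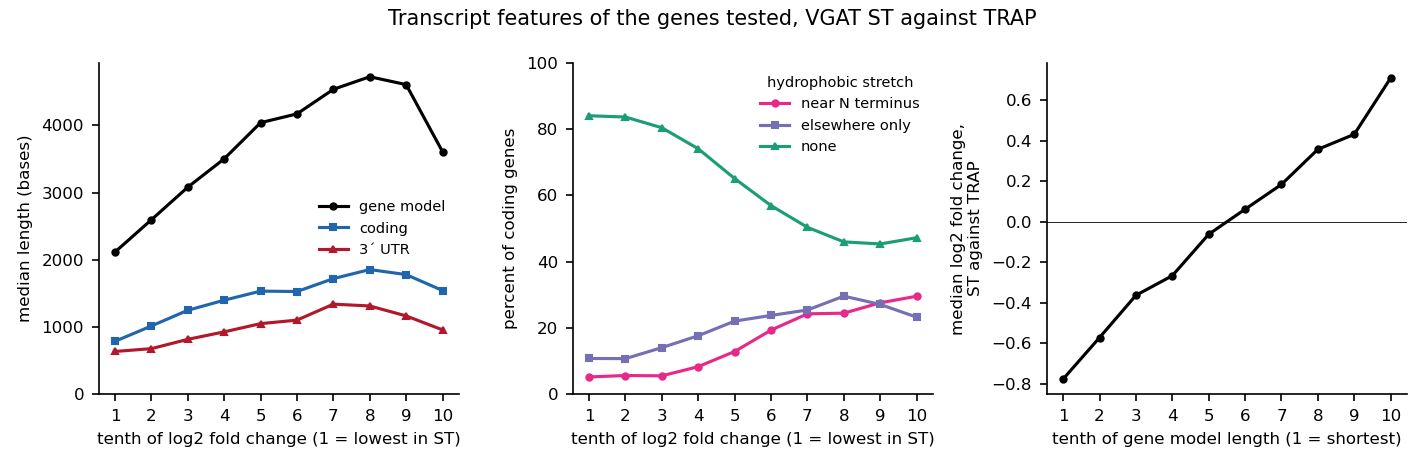
Left, median length in bases of gene models, coding sequences and 3´ UTRs, and middle, percent of coding genes with a hydrophobic stretch near the N terminus, elsewhere only or nowhere, over 10 equal groups of genes ranked by log2 fold change of ST against TRAP; right, median log2 fold change over 10 equal groups of gene model length. The shortest genes stand at -0.78 and the longest at 0.71.

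The RBP4 line gave the same step with ribosomes tagged in layer 5 pyramidal neurons. The log2 fold changes of ST against TRAP in the lines shared no libraries and had a Pearson r of 0.760 and a Spearman rho of 0.771 over 16900 genes. Of 7456 genes called in both, 3368 were higher and 3853 lower in both, 84 were higher in VGAT and lower in RBP4, and 151 the reverse. At an adjusted p of at most 0.05 the difference between lines itself passed for 2.32% of the genes toward VGAT and 3.5% toward RBP4, or 392 and 592 genes. These counts fell to 135 and 302 without pool 1, 203 and 347 without pool 2 and 190 and 324 without pool 4, and DESeq2 gave 696 and 835. In simulated data this test recovered 0 of 200 2-fold and 147 of 200 4-fold differences. Genes that did not pass may therefore still differ between the lines. Astrocyte markers had a median log2 fold change of 3.97 in VGAT and 3.73 in RBP4, and 1 of 22 differed between the lines. Myelin markers had 3.23 and 3.30. The median difference between lines was 0.08 for postsynaptic scaffolds and -0.44 for respiratory chain genes, against -0.06 for all genes.

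All 20 GABAergic markers passed the test between lines with a lower log2 fold change in VGAT than in RBP4, with medians of -1.94 and 1.31. So did 19 of 20 striatal genes, 15 of 17 interneuron factors and 11 of 15 neuropeptide precursors, while 2 precursors passed with a higher one. On the scale of the 20 ST and TRAP libraries Dlx1 was at 9.61, 10.1, 14.7, 12.4 and 12.7 cpm in VGAT ST and at 6.18, 6.72, 10.1, 9.67 and 6.84 cpm in RBP4 ST. Its TRAP levels were 109, 98.3, 80.4, 113 and 83.5 cpm in VGAT and 2.68, 2.87, 3.24, 1.73 and 2.42 cpm in RBP4. The ST libraries of the lines were thus close to each other and the TRAP libraries far apart, and the difference in log2 fold change was -4.63 (standard error 0.31, adjusted p = 2.3e-06). Sp9, Pcp4l1, Syndig1l and Gm14204 were the other genes with the smallest p on this side (-4.75, -4.38, -4.00 and -3.84).

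Of 20 excitatory markers 13 passed the same test with a higher log2 fold change in VGAT than in RBP4, and 1 with a lower one. Fezf2, which specifies layer 5 projection neurons, was at 18.2, 15.9, 17.4, 16.9 and 13.4 cpm in VGAT ST and at 17.6, 18.6, 12.4, 19.4 and 45.6 cpm in RBP4 ST, against 4.17 to 18.2 cpm in VGAT TRAP and 76.3 to 168 cpm in RBP4 TRAP. Its difference was 3.96 (standard error 0.51, adjusted p = 0.00031). Neurod2 (3.43), Rorb (2.74), Stx1a (2.37) and Dtx4 (1.62) followed. Adcyap1 and Grp, the precursors that were higher in VGAT ST, also differed (3.39 and 2.52, adjusted p = 0.003 and 0.013). Slc32a1 was at 39.2, 43.3, 23.6, 44.0 and 46.4 cpm in VGAT ST and at 20.4, 17.6, 12.4, 49.9 and 14 cpm in RBP4 ST, where pool 4 stood above all 5 VGAT ST libraries and the other pools below them. Without that library its difference between lines was -3.07 in place of -3.46 (adjusted p = 0.00091 and 0.00048).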

How the data were processed

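RNA-seq was made from 4 fractions of 5 pools in each of the VGAT and RBP4 lines, and the 5 ST and 5 TRAP libraries of the VGAT line were compared. The authors deposited, per library, counts, CPM and RPKM per gene. The authors' counts came from STAR 2.0.4b and featureCounts 1.4.5 (Subread), per the submitters' processing notes. The deposited CPM and RPKM values follow from the counts and were used only to check them. The genome build is not given in the sources used here, and 36803 of 41388 gene models lay within 1 kb of GENCODE M21 bounds, with 40340 symbols matched. Whether reads were counted by strand is not given.

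Genes on the mitochondrial chromosome were left out. Genes were tested if they reached 0.5 cpm in 3 or more of the fitted libraries. The fit was made with edgeR 4.0.16 (R 4.3.3), with TMM scaling, the quasi-likelihood test, and the pool as a block. The block was used because, per the protocol, the 4 fractions of a number come from 1 pool. Deviations of same-numbered ST and TRAP libraries from their group means had a mean correlation of 0.059 (-0.012 to 0.109), against -0.015 for other pairs. Interactions with SNF less WCH and with the RBP4 line were fitted on 20 libraries each. The alternatives were DESeq2 1.42.0, its size factors in edgeR, library sizes in place of TMM, no block, each pool left out, edgeR's likelihood ratio test, no filter or 1 cpm in at least 5 libraries, no genes left out, rRNA and tRNA genes left out as well, all 20 VGAT libraries in one fit, and RBP4 ST pool 4 left out. The code was tested on simulated data with known changes. Of 200 2-fold changes it recovered 126 for ST against TRAP, 87 for the interaction with fractionation and 0 for that with the line. Of 200 4-fold changes it recovered 189, 190 and 147. Pools hold separate animals, and with the pool as a block the p-values rest on how far the difference between fractions varied from pool to pool.

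Depth sets the precision: 1 count is worth 0.0486 to 0.0847 cpm. Genes were named by rule: the 10 with the largest change in each direction among called genes of at least 10 cpm whose groups do not overlap, up to 3 called members per list and direction by p, a fixed set, and the 5 with the smallest p in each direction of each interaction. Other list members are named for their role, chosen after their values were seen. The lists (30, with 705 genes, of which 694 were measured, 8 were below the filter and 3 had no matching symbol) and the comparison were chosen with earlier results of these data known. Hydrophobic stretches were found in translated M21 coding sequences with the Kyte-Doolittle scale. Some genes are not reported here by name.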

Additional observations from a re-analysis of the deposited data

Results flagged for a closer look

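Of 86 groups of 5 libraries, 5 held a library far from the others, where chance gives about 1 in 20. In TRAP pool 4 Sst was at 3569 cpm, against 2378 to 2671 cpm in the other TRAP pools. TRAP pool 3 had Slc17a7 at 150 cpm and Gfap at 52.5 cpm, each above the rest of its group. Bcas1, a gene of myelinating cells, was at 1049 cpm in ST pool 3, and the same library had 19% of its counts on the mitochondrial chromosome. The lowest mitochondrial share of an ST library was 2.8%, above every TRAP library, and these genes were in no comparison.

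The step from TRAP to ST differed between the lines for 17 of the genes looked at, by edgeR's test of the interaction. Over all genes 2.32% and 3.5% passed toward VGAT and RBP4. Dlx1, Sp9, Pcp4l1, Syndig1l, Gm14204, Fezf2, Neurod2, Rorb, Stx1a and Dtx4 were picked by their p in this test, so their passing was given. Camk2a, Capn11, Dlg4, Gsr, Rpl10a and Shank3 were looked at and did not pass (edgeR adjusted p from 0.095 to 0.65). The difference in log2 fold change, VGAT less RBP4, was negative for genes of GABAergic and striatal cells: Sp9 (-4.75), Dlx1 (-4.63), Gad2 (-4.5), Pcp4l1 (-4.38), Gad1 (-4.30), Syndig1l (-4.00), Gm14204 (-3.84), Slc32a1 (-3.46), Npy (-3.25), Sst (-2.64) and Cort (-2.20). It was positive for Fezf2 (3.96), Neurod2 (3.43), Slc17a7 (2.93), Rorb (2.74), Stx1a (2.37) and Dtx4 (1.62). Without RBP4 ST pool 4 all 17 still passed, with edgeR adjusted p of at most 0.0087, and Capn11 passed as well (edgeR adjusted p = 0.017).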

How the results depend on the processing

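Leaving out 1 pool at a time gave 4964 to 5648 genes higher and 4580 to 5362 lower in ST than in TRAP, 3854 to 4843 and 3727 to 4602 for the interaction with fractionation, and 135 to 484 and 302 to 632 for that with the line. The counts by line fell more than 1.5-fold without pool 1 (135 and 302), pool 2 (203 and 347) or pool 4 (190 and 324), and DESeq2 gave 696 genes higher where edgeR gave 392. Without a block for the pool the counts were 5831 and 5293, 4073 and 4099, and 476 and 740, and none of these 6 moved by over 1.5 times. With library sizes in place of TMM the fractionation interaction called 6516 genes higher and 2778 lower, 70.1% higher in place of 51.3%, as the median of all genes moved to 0.38 from 0.03, and the directions of the interaction given for lists are relative to that median. Of 2474 values of the 165 genes named by rule under alternatives, which leaves out list members named for their role such as Abat, 2451 kept direction and side of the threshold, 19 lost the call, 3 gained it and 1 turned. That was Rpl10a, which ran from -0.70 without pool 5 to 0.13 without pool 3 (adjusted p = 0.75), and the cause was not tested. Genes near 1 cpm rest on few counts.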

Other observations

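Erythrocyte markers, a sign of blood in the tissue, had 2 of 5 genes higher in ST (1 without pool 1 or 2, 4 without pool 3, and 5 without the block or with DESeq2), and their sum was 45.9 to 285 cpm in ST and 26.5 to 60.6 cpm in TRAP. Hbb-bt, a beta-globin, was at 35.0, 27.5, 6.55, 4.85 and 4.92 cpm in ST, highest in the pools that also had the highest endothelial sums, and its call (log2 fold change 1.66, edgeR adjusted p = 0.022) was lost without pool 1 or 2. Gsr, the glutathione reductase, was lower in ST (log2 fold change -0.84, edgeR adjusted p = 0.00085). Capn11, a calpain, was at 0.455 to 2.39 cpm in ST and 0.185 to 1.27 cpm in TRAP and did not pass (0.80, edgeR adjusted p = 0.075), but did pass in edgeR's likelihood ratio test, with the stricter filter on low counts and with all 20 VGAT libraries in one fit (edgeR adjusted p = 0.038, 0.042 and 0.049). Klf4, an immediate early gene also of vascular cells, had a log2 fold change of 3.15 with ST levels of 4.83, 3.45, 0.455, 0.606 and 1.05 cpm, again highest in pools 1 and 2.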
